A study of Mus musculus with 8 samples.

Results

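The arrays described here compared cells given EBF1-H240A, an altered form of the transcription factor EBF1, with cells given an empty retrovirus. They are 5 of the 8 arrays of the series, 3 labelled EBF1-H240A and 2 labelled Empty, and were chosen by those labels alone. The other 3 arrays carried wild-type EBF1 (EBF1wt) and are used below as the reference for the altered protein. The cells of all groups were c-Kit-positive fetal liver progenitors of Ebf1-/- mice on the C57Bl/6 background, so the controls also lacked Ebf1. The feeder layer was OP9, a stromal line from mouse bone marrow, and the medium held interleukin 7 (IL-7, 5 ng/ml), Flt3 ligand (10 ng/ml) and stem cell factor (10 ng/ml). The retrovirus was pMys-IRES-GFP with no insert (Empty) or with the cDNA of EBF1-H240A or EBF1wt ahead of the GFP cassette. GFP-positive cells were sorted 36 h after transduction. The labels number the replicates without saying which cultures or animals they came from. The p-values therefore measure only how far these arrays spread, which may be technical. The age of the fetuses is not given, and the promoter that drove the inserts is named only through the vector.

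EBF1 is a DNA-binding factor that progenitors need in order to enter the B lineage. It binds the genes of the pre-B cell receptor, among them Cd79a, Cd79b, Igll1 and Vpreb1, and it also opposes the genes of other blood lineages. In EBF1-H240A an alanine stands in place of a histidine, a change known to weaken the contact of EBF1 with CNOT3. CNOT3 is a subunit of CCR4-NOT, a complex that shortens the poly(A) tails of mRNA and also acts in transcription. The comparison with Empty asks what the altered protein still raises and lowers in cells without Ebf1 of their own. The comparison with EBF1wt asks where its effect departs from that of the intact protein.

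Values are log2 signals after every array was scaled to the same 75th percentile of intensity, so a difference of 1 is a change of 2-fold. A gene is called changed at an adjusted p under 0.05 in limma over all 16304 genes tested. An array probe counts as detected when it was well above background, and where no array of a group detected a gene only a bound on the fold is given, as "at least N-fold". Between 54.6% and 59.6% of probes were detected on each array, no spot was saturated, and arrays of the same group correlated at 0.991 to 0.995. The progenitor markers Kit, Flt3, Cd34 and Cd93 were detected on all 8 arrays. The erythroid markers Gata1 and Klf1, the granule gene Elane, the B-lineage factor Pax5 and the hepatocyte genes Alb, Afp, Apoa1 and Ttr were too dim to test. The Ebf1 probe read 10.10 and 10.19 with Empty and 10.44, 10.33 and 10.15 with EBF1-H240A, a difference of 0.16 ± 0.09 (SE) with adjusted p = 0.191. That probe therefore gave no check of the vectors, and the files do not say which part of the transcript the insert shares with it. In RNA from whole populations, fewer cells of a type and less RNA per cell cannot be told apart.

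EBF1-H240A changed a large share of the genes that the arrays could measure, and its largest effects were rises. Of the 16304 genes tested, 7272 (44.6%) differed from Empty. Of these, 3517 (21.6%) were higher and 3755 (23.0%) were lower with EBF1-H240A, and for every one of them the 3 EBF1-H240A arrays did not overlap the 2 Empty arrays. The arrays of 10680 of the 16304 genes did not overlap. The sizes were uneven. With bounds in place of fitted folds, 946 genes were at least 2-fold higher and 532 at least 2-fold lower, 317 against 77 passed 4-fold, and 140 against 11 passed 8-fold. At 32-fold, 39 genes were higher and 0 were lower. The median log2 difference was 0.66 over the genes called higher and -0.52 over those called lower, while it was -0.0026 over all genes tested. The 8 arrays lay on 2 slides, and each slide held every group. Each slide held 1 Empty array, so a fit within a slide takes its spread from the pair of EBF1-H240A arrays on the first slide or of EBF1wt arrays on the second, and assumes that the single arrays vary alike. Such fits called 1096 genes on the first slide, 765 higher and 331 lower, and 322 on the second, 275 higher and 47 lower. Each of the 7272 genes had the same sign on both slides, which follows from the lack of overlap and is no separate support.

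**Figure D1:**
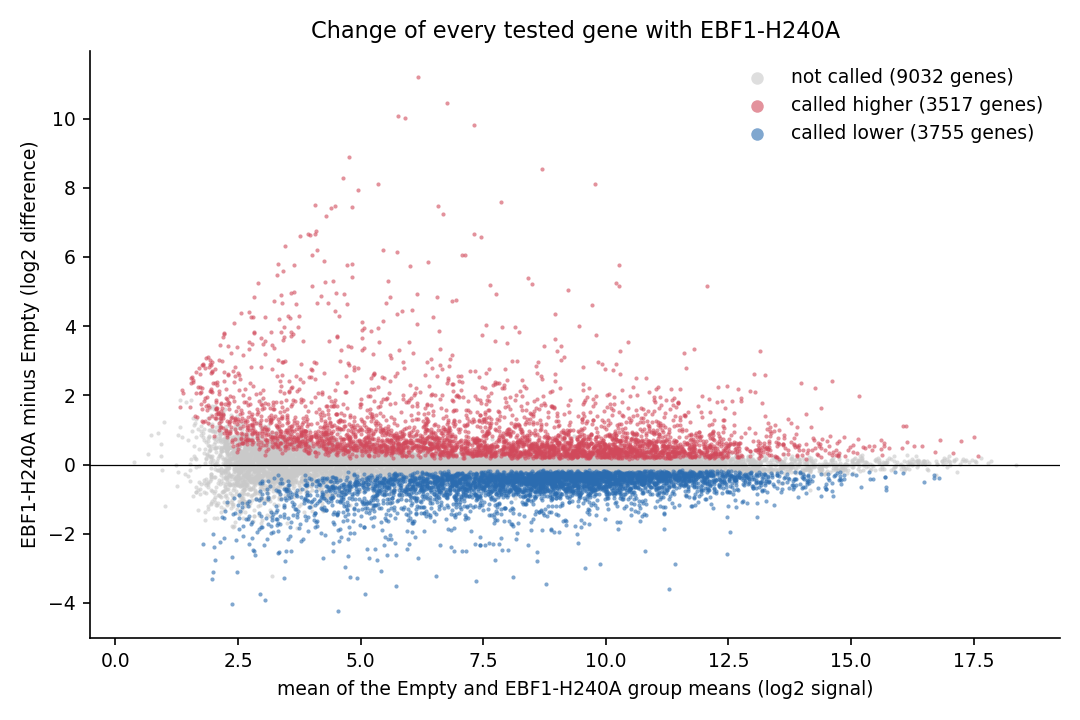
Log2 difference between EBF1-H240A and Empty (vertical axis) against the mean of the Empty and EBF1-H240A group means in log2 signal (horizontal axis), a point for each of the 16304 genes tested, coloured by whether the gene was called higher (3517), called lower (3755) or not called. The rises reach much further from 0 than the falls.

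Some genes crossed the limit of detection altogether. EBF1-H240A brought 237 genes above background on all 3 arrays that neither Empty array detected, and 209 of these were called higher. Of the 237, 125 were also detected on all 3 EBF1wt arrays and 27 on none of them. In the other direction, 83 genes were detected on both Empty arrays and on no EBF1-H240A array, and 60 of these were called lower. Of the 83, 43 were detected on no EBF1wt array and 3 on all of them. Both sets were chosen by detection on the arrays that were compared, so their shares called higher or lower follow partly from that choice. The dynein gene Dnah8 and the kinase gene Prkcq were among those called lower, at least 4.81-fold and 4.02-fold, and both calls were lost with the normexp background correction, which adds an offset of 50 to the intensities. The ubiquitin ligase gene Rnf217 was not called (adjusted p = 0.0651), and its Empty arrays stood far apart, at 7.15 and 2.46.

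The 12 largest rises included a gene of the B lineage and genes best known from other blood lineages or other tissues. They included the renin genes Ren1 and Ren2, the collagen gene Col26a1, the intestinal lactase gene Lct, the serine protease gene Tmprss6, the growth hormone gene Gh and the skin protease gene Asprv1, together with the surrogate light chain gene Igll1. Col26a1 read 1.05 and 0.12 on the Empty arrays and 11.78, 11.78 and 11.76 with EBF1-H240A, a rise of at least 625-fold. Ren1, which encodes the protease that starts angiotensin formation, read 1.21 and 1.87 with Empty and 11.81, 12.33 and 11.83 with EBF1-H240A, at least 728-fold higher. The Ren2 probe rose by at least 343-fold, but C57Bl/6 mice are known to carry only Ren1, and near-identical copies cannot be separated on these probes. On mm9, the build of the scanner files, the probes lie at chr5:137217650-137217709 for Col26a1, chr1:135256659-135256718 for Ren1, chr1:130181389-130181448 for Lct, chr15:78270258-78270317 for Tmprss6 and chr6:86579351-86579410 for Asprv1.

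Lct was detected on 1 of the 2 Empty arrays and rose from 2.0 and 2.78 to 12.09, 12.52 and 12.04, a difference of 9.83 ± 0.24 (adjusted p = 1.22e-06). Tmprss6, whose product cleaves hemojuvelin and so lowers hepcidin, was detected with Empty at 4.64 and 4.23 and reached 12.88, 13.11 and 12.98, a difference of 8.55 ± 0.13 (adjusted p = 3.38e-07). Asprv1 rose from 5.62 and 5.86 to 13.85, 13.78 and 13.87, among the brightest signals of these genes. Both of these genes could be read on all 8 arrays, so their folds are measured and not bounded. Cd8b1, the beta chain of the T-cell coreceptor CD8, went from 3.89 and 4.24 to 11.69, 11.23 and 12.05, a difference of 7.59 ± 0.23 (adjusted p = 3.03e-06).

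The other genes of this group began below background. The ficolin gene Fcnb, expressed in granulocyte precursors, rose by at least 106-fold, Gh by at least 122-fold, the DMRT-family gene Dmrtc2 by at least 86.5-fold and the lipid droplet gene Cidea by at least 78.1-fold. All 12 of these genes were called higher with EBF1wt as well. With that protein the bounds on genes that Empty did not detect ran from 35.9-fold for Fcnb to 933-fold for Igll1, and the measured differences from 7.00 for Cd8b1 to 8.82 for Lct. The Empty arrays are common to both comparisons, so the 2 sets of values are given side by side only. The direct comparison of the proteins is given further on.

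The promoters of 6 of these genes are shown because they are the stretches of DNA next to the strongest responses, and EBF1 is known to bind the palindrome CCCNNGGG. Each is the run from 250 bases before to 50 bases after the start of the gene in RefSeq (GRCm38.p6), written 5′ to 3′ on the strand of the gene, with any CCCNNGGG in capitals. Ren1 (chr1:133350424-133350723, + strand), Igll1 (chr16:16863936-16864235, - strand), Fcnb (chr2:28084829-28085128, - strand) and Asprv1 (chr6:86627924-86628223, + strand) hold a match, and Lct (chr1:128328269-128328568, - strand) and Dmrtc2 (chr7:24869807-24870106, + strand) hold none.
Ren1: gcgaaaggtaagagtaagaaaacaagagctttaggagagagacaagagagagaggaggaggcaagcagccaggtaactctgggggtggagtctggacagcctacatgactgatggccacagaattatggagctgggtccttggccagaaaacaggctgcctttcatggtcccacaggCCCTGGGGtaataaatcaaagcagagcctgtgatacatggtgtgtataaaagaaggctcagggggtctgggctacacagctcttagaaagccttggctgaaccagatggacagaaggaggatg
Igll1: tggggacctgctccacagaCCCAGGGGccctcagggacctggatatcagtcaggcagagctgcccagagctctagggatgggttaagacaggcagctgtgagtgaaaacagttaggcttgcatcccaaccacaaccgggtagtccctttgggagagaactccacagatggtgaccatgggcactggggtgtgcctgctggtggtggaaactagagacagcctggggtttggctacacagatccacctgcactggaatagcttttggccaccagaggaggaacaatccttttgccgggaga
Fcnb: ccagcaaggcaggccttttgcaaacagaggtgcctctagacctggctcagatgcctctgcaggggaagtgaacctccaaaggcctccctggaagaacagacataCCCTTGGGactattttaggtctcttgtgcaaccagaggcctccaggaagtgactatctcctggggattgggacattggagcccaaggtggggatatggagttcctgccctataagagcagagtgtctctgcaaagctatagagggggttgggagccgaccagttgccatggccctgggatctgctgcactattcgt
Asprv1: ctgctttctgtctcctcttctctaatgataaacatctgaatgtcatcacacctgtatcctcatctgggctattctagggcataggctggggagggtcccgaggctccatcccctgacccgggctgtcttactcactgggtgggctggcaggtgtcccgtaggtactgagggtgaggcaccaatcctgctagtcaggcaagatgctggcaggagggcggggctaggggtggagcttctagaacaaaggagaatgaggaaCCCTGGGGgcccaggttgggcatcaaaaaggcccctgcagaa
Lct: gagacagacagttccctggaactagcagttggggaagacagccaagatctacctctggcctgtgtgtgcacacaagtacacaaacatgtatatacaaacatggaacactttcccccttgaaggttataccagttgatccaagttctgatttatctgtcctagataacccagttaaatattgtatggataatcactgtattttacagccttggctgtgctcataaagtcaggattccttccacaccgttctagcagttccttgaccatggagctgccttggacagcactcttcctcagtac
Dmrtc2: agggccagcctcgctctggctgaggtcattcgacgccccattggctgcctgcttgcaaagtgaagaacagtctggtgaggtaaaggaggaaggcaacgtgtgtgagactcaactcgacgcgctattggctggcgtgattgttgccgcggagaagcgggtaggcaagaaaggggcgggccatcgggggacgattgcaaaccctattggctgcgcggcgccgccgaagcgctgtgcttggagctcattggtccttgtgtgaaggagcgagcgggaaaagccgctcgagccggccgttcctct

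Counted from the gene start, the match begins at position -73 in Ren1, -231 in Igll1, -146 in Fcnb and 9 in Asprv1. CCCNNGGG reads the same on both strands, so each match is counted on both at the same place. It was present in 20.1% of the 2460 promoters available for genes called higher, in 18% of 2706 for genes called lower and in 17.8% of 10888 for all genes tested. Among genes with a fitted rise of at least 4-fold it was present in 25.5% of 278 promoters, and among genes with a fitted fall of at least 4-fold in 18.5% of 65. The longer TCCCNNGGG, which contains CCCNNGGG and was searched on both strands, was present in 13.3% and 4.6% of these promoters and in 7.8% of those of all genes tested. These shares describe letters in a window and not bound sites.

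Falls were smaller, and the largest included a gene each of mast cells, red cells and intraepithelial lymphocytes. The mast cell protease gene Cpa3 read 6.97 and 6.95 with Empty and 3.06, 3.31 and 3.29 with EBF1-H240A, a difference of -3.74 ± 0.22 (adjusted p = 3.13e-05). The beta globin gene Hbb-bt fell from 13.01 and 13.17 to 9.51, 9.49 and 9.51, a difference of -3.58 ± 0.08 (adjusted p = 7.54e-07), although globin copies are nearly identical and may share the probe. Itgae, the integrin CD103 of intraepithelial lymphocytes, fell from 9.80 and 9.66 to 6.36, 6.62 and 6.44, a difference of -3.26 ± 0.10. In each of the 3 genes the lowest Empty array lay far above the highest EBF1-H240A array.

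Ahsg, which encodes the serum protein fetuin-A, read 9.01 and 9.04 with Empty and 5.68, 5.63 and 5.67 with EBF1-H240A, a difference of -3.37 ± 0.09 (adjusted p = 2.1e-06). The calmodulin-like gene Calml3 (-3.52), the Ras-induced membrane protein gene Tmem158 (-3.44) and the sugar transporter gene Slc35d3 (-3.22) fell by similar log2 differences. The remaining large falls ended below background. They were the muscle AMP deaminase gene Ampd1, at least 5.47-fold lower, the calsequestrin gene Casq2, at least 5.68-fold lower, and the scavenger receptor gene Megf10, at least 4.77-fold lower. The receptor gene Il20ra and the potassium channel subunit gene Kcnmb1 also fell, by at least 3.59-fold and 2.08-fold, but both calls were lost with normexp correction.

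**Figure D2:**
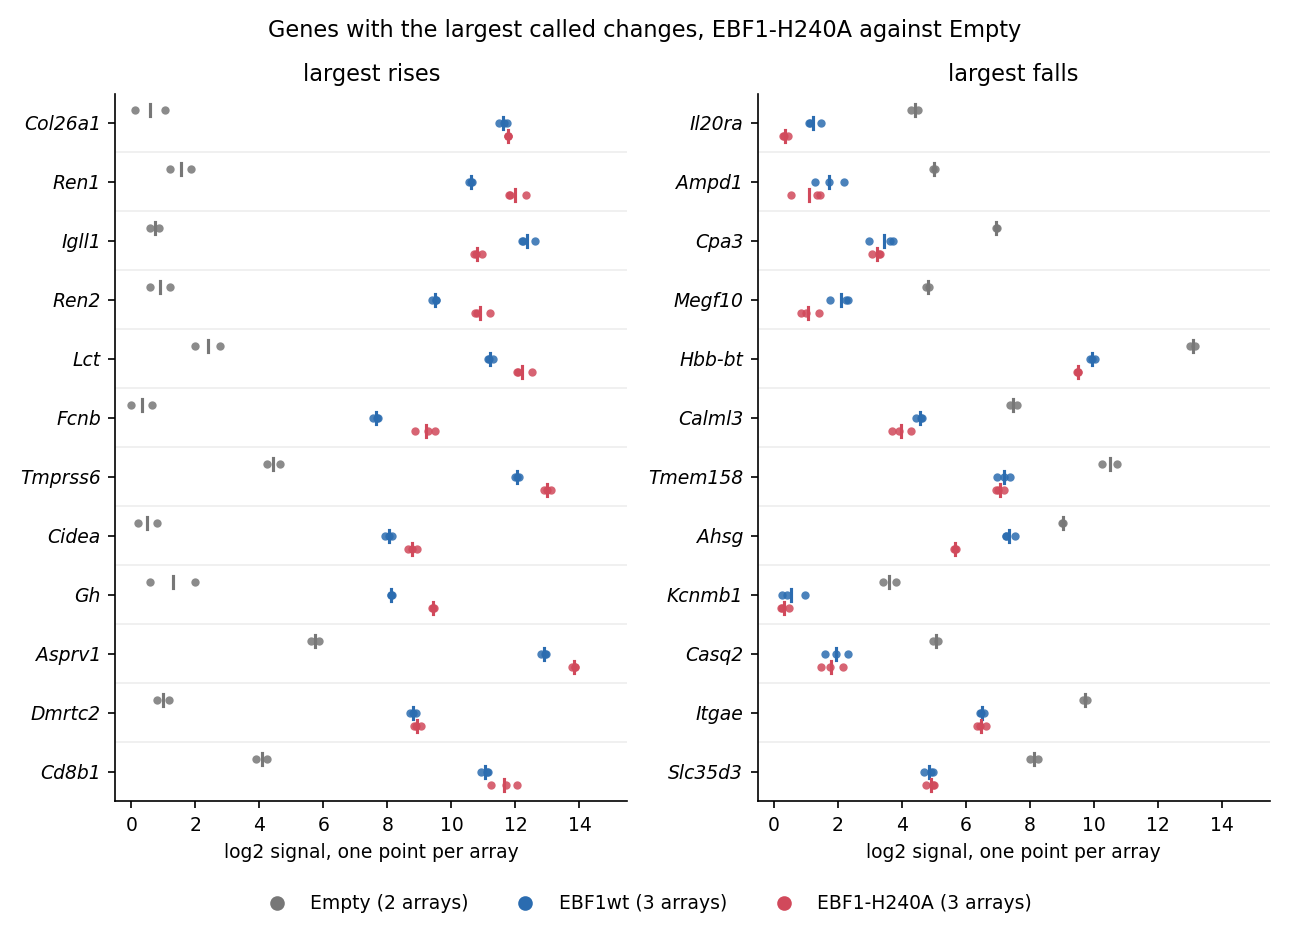
Log2 signal (horizontal axis) of the 12 genes with the largest rise and the 12 with the largest fall in EBF1-H240A against Empty (vertical axis), a point for each of the 8 arrays, coloured by group. In each of the 24 genes the EBF1-H240A points lie on the far side of both Empty points, and the EBF1wt points lie mostly beside those of EBF1-H240A.

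Genes of the pre-B cell receptor and of B-cell receptor signalling moved mainly upwards. Of 29 members tested, 17 were higher, 5 were lower and 7 were not called, with a median difference of 0.54. For this and each later list, the shares over all genes tested were 21.6% higher and 23.0% lower against Empty. Against EBF1wt they were 3.64% higher and 2.71% lower. The lists were chosen with earlier results of these data known, so list counts beside these shares are a description. Igll1, the lambda5 chain of the surrogate light chain, read 0.59 and 0.87 with Empty and 10.76, 10.95 and 10.70 with EBF1-H240A, at least 319-fold higher. Vpreb1, its partner, rose from 5.92 and 5.53 to 10.93, 11.42 and 10.96, a difference of 5.38 ± 0.19 (adjusted p = 4.4e-06). Cd79b, a signal chain of the receptor, rose from 9.40 and 9.56 to 14.67, 14.71 and 14.56, the most tightly grouped of these values, with a difference of 5.17 ± 0.08 (adjusted p = 3.38e-07). The inhibitory receptor gene Cd22 (2.72), the adaptor gene Bank1 (1.43), the kinase gene Syk (0.88) and the phospholipase gene Plcg2 (0.68) were also higher. Cd24a (-0.96), Cd72 (-0.95) and Siglecg (-0.92) were lower. Cd79a rose by 0.87 from near the limit of detection, a call that was lost under several alternatives, and Vpreb3 read 5.69 and 3.25 on the 2 Empty arrays, so that its difference had no settled sign.

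Transcription factors of the B lineage moved both ways. Of 21 tested, 8 were higher and 7 were lower, with a median of 0.13. Pou2f2 (OCT-2) rose from 7.83 and 7.85 to 9.98, 9.93 and 9.95, a difference of 2.12 ± 0.07 (adjusted p = 4.4e-06), and Spib, an ETS factor of B cells, rose by 1.66. Ikzf3 (0.90) and Klf3 (0.67) were higher too. The opposite held for Lef1, which fell from 7.16 and 6.90 to 4.41, 4.52 and 4.34, a difference of -2.61 ± 0.14 (adjusted p = 1.88e-05), and for Aff3 (-1.90), Sox4 (-1.26), Bach2 (-0.88), Irf8 (-0.85) and Mef2c (-0.80). Pou2af1, the coactivator of OCT proteins, read 2.98 and 3.28 with Empty, 3.35, 3.76 and 3.97 with EBF1-H240A and 5.01, 4.69 and 4.92 with EBF1wt, and its difference from Empty was not called with EBF1-H240A (adjusted p = 0.056). Genes of V(D)J recombination, which joins antigen receptor segments, included 3 higher and 6 lower of 13. Over all genes tested, 21.6% were higher and 23.0% were lower. Dclre1c (Artemis) rose by 1.04, while the polymerase gene Polm (-1.14), the end-binding gene Xrcc5 (-0.64) and Hmgb1 (-0.70) fell. Between the proteins, 1 gene of this list was lower with EBF1-H240A, 1 was higher and 11 were not called. The higher one was Polm (0.55, adjusted p = 0.0254 in limma).

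Other surface genes of B cells included some of the steepest rises, with 13 of 26 members higher and 7 lower (median 0.38). The low-affinity IgE receptor gene Fcer2a was at least 30.3-fold higher, and Ms4a1, which encodes CD20, went from 2.83 and 1.90 to 8.41, 8.41 and 8.82 and was at least 66.9-fold higher. Cd40, the costimulatory receptor, was detected on every array and rose from 6.95 and 7.14 to 10.48, 10.30 and 10.59, a difference of 3.41 ± 0.12 (adjusted p = 4.14e-06). Fcmr, the IgM Fc receptor gene, fell by 2.65 on the log2 scale, Cxcr5 by 1.60, Il2ra by 1.39 and Ccr7 by 0.81.

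Most changes at T-cell and innate lymphoid genes were falls. Of 36 tested, 20 were lower, 5 were higher and 11 were not called, with a median of -0.49. The adaptor gene Lat, which carries signals from the T-cell receptor, fell from 8.54 and 8.40 to 6.38, 6.28 and 6.51, a difference of -2.08 ± 0.10 (adjusted p = 1.23e-05). Gata3, the factor of T helper and innate lymphoid cells, fell from 9.73 and 9.65 to 8.24, 8.27 and 8.29, a difference of -1.42 ± 0.07 (adjusted p = 1.47e-05). The surface genes Cd6 (-2.50), Cd5 (-2.40), Cd27 (-1.72), Cd3g (-1.64), Cd7 (-1.51) and Il2rb (-1.47) and the kinase gene Lck (-1.34) were lower as well. The exceptions were large. Cd8a was at least 20.2-fold higher, and Tbx21, the T-bet gene, rose from 6.88 and 6.57 to 11.58, 11.81 and 11.90, a difference of 5.04 ± 0.19 (adjusted p = 5.4e-06). Cd28 (1.15) was also higher, and Cd3e differed by -0.19 ± 0.27 (adjusted p = 0.601).

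Notch signalling directs progenitors to the T lineage. With EBF1-H240A, 9 of 19 genes of the pathway were higher and 2 were lower, with a median of 0.30. The target gene Heyl moved from 1.18 and 0.23 to 7.81, 7.91 and 7.93, at least 42.1-fold higher. Dtx1, a ubiquitin ligase gene that Notch induces, rose from 7.45 and 7.31 to 10.61, 10.68 and 11.13, a difference of 3.42 ± 0.16 (adjusted p = 1.32e-05). Among the receptors, Notch3 rose by 2.49 and Notch1 by 1.24, and among the targets and ligands Dtx4 rose by 1.30, Nrarp by 1.12 and Jag2 by 1.59. The 2 that fell were genes of fringe glycosyltransferases, which modify Notch receptors: Mfng (-0.85) and Lfng (-0.37), of which the second lost its call under several alternatives.

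Myeloid genes were raised in most cases: 19 of 28 tested were higher and 7 were lower, with a median of 0.65. Fcnb led, at 0.63 and 0.00 with Empty and 9.28, 8.87 and 9.49 with EBF1-H240A. Cebpb, a factor of macrophages and granulocytes, rose from 11.17 and 11.20 to 13.55, 13.34 and 13.35, a difference of 2.23 ± 0.09 (adjusted p = 7.07e-06). Csf1r, the receptor for the macrophage growth factor, rose from 8.82 and 9.23 to 11.12, 10.88 and 11.08, a difference of 2.0 ± 0.15 (adjusted p = 9.17e-05). The shared cytokine receptor chain Csf2rb (2.10), the granule protease genes Prtn3 (2.04) and Ctsg (1.40), Trem1 (2.11) and the oxidase gene Cybb (1.26) were higher. In contrast Mpo, the myeloperoxidase gene of granulocyte progenitors, fell from 9.24 and 8.91 to 7.65, 7.97 and 7.15, a difference of -1.49 ± 0.23 (adjusted p = 0.00215). The integrin gene Itgam (-1.45) and the Fc receptor gene Fcgr3 (-1.39) fell too. The list held 7 further genes that were too dim to test, among them Elane, Csf3r, Ltf and Camp, which mark maturing neutrophils.

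Red cell, megakaryocyte and mast cell genes showed no common direction. Of 16 erythroid genes, 5 were higher and 6 were lower, and 12 more were too dim to test. That is 68.8% called, beside 44.6% over all genes tested. Alas2, the erythroid enzyme of haem synthesis, was at least 23.4-fold higher, and Nfe2 (2.51) and Car2 (1.85) rose, while the transferrin receptor gene Tfrc (-1.25) fell. Of 14 megakaryocyte and mast cell genes, 5 were higher and 4 were lower, 64.3% in all. The platelet genes split, with Gp9 (1.77) and Vwf (2.10) higher and the integrin genes Itga2b (-2.34) and Itgb3 (-0.64) lower. Another Itgb3 probe did not show this fall and differed by 0.06. Among 20 genes of dendritic cells and MHC class II, 6 were higher and 7 were lower, beside 21.6% higher and 23.0% lower over all genes tested. Itgax (-2.26), Cx3cr1 (-1.92), Batf3 (-1.78) and the class II transactivator gene Ciita (-1.22) were lower, and the peptide loading genes H2-DMb1 (1.62) and H2-DMb2 (1.02) and the dendritic cell factor gene Zbtb46 (1.03) were higher. Siglech, of plasmacytoid dendritic cells, fell from 3.57 and 3.54 to 0.16, 0.82 and 0.37, a call that normexp correction removed.

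Genes of stem cells and multipotent progenitors fell in 16 of 31 cases and rose in 7, with a median of -0.32. Over all genes tested, 23.0% were lower and 21.6% were higher. Mycn, the MYC family member of stem cells, had the largest fall, from 12.96 and 12.76 to 9.89, 10.13 and 9.90, a difference of -2.88 ± 0.12 (adjusted p = 8.1e-06). Kit, the receptor by which the cells were enriched, fell from 10.57 and 10.64 to 9.48, 9.29 and 9.63, a difference of -1.14 ± 0.10 (adjusted p = 0.00022). Cd34 (-1.17), Runx2 (-0.95), Hoxa9 (-0.85) and Satb1 (-0.77) were lower as well. Lmo2, a partner of TAL1 in stem cells, rose by 1.68, and Procr, the protein C receptor, rose by 1.81.

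Genes of DNA replication and mitosis moved almost uniformly. Of 37 replication and mitosis genes, 35 were lower and 0 were higher with EBF1-H240A, with a median of -0.61, and the 2 without a call were Mybl2 and Tk1. In limma, 0 of the 37 were higher at an unadjusted p under 0.05. The helicase subunit gene Mcm2 read 11.14 and 11.07 with Empty and 10.10, 9.98 and 10.30 with EBF1-H240A, a difference of -0.98 ± 0.10 (adjusted p = 0.000335). Mcm5, another subunit, fell from 12.42 and 12.28 to 11.40, 11.41 and 11.54, a difference of -0.90 ± 0.08 (adjusted p = 0.00017). Mcm3 (-0.95), the loading factor gene Cdc6 (-0.92), the mitotic kinase gene Cdk1 (-0.91), the topoisomerase gene Top2a (-0.84) and the thymidylate synthase gene Tyms (-0.80) were each below both Empty arrays on all 3 arrays. The median over the same list was -0.35 with EBF1wt.

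Cell cycle entry genes included 12 lower and 6 higher of 23, beside 23.0% lower and 21.6% higher over all genes tested. Cdk4 (-0.95) and Ccne1 (-0.85) fell, whereas cyclin D1 (Ccnd1) rose from 8.29 and 8.41 to 10.14, 10.14 and 10.33, a difference of 1.85 ± 0.08 (adjusted p = 9.54e-06), as did E2f2 (0.84) and the inhibitor genes Cdkn2b (1.75) and Cdkn1a (0.86). Of 37 genes of the MYC network and ribosome biogenesis, 28 were lower and 2 were higher, with a median of -0.59. The 2 that were higher were Myc itself (0.85) and Mxd1 (2.09), a MAX partner that opposes MYC. Mycl fell by 1.53 on the log2 scale, and the ribosome assembly genes Rrp9 (-0.93), Rrp12 (-0.84) and Nop58 (-0.69) and the ornithine decarboxylase gene Odc1 (-0.80) were lower. Of 39 genes of glycolysis and nutrient uptake, 17 were lower and 7 were higher, beside 23.0% and 21.6% over all genes tested. The serine pathway genes Psat1 (-1.27), Shmt2 (-0.88) and Phgdh (-0.80) fell, while the transporter gene Slc2a6 rose by 1.18, Ldhb was at least 2.56-fold higher and Pgk1 differed by 0.01 ± 0.07 (adjusted p = 0.93).

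Interferon response genes moved the other way. Of 35 tested, 27 were higher and 0 were lower, with a median of 0.63, and 2 of the 35 were lower at an unadjusted p under 0.05 in limma. Ifit1, an antiviral RNA-binding protein gene, rose from 8.52 and 8.79 to 10.60, 10.34 and 10.60, a difference of 1.86 ± 0.15 (adjusted p = 0.000133), and Ifit3 rose by 2.18. The nucleic acid sensor genes Zbp1 (1.84) and Dhx58 (0.93), the chemokine gene Cxcl10 (1.34) and Oas3 (0.91) were higher. The list's median was 0.54 with EBF1wt, and the cells of all 8 arrays had received a retrovirus. The median of the list was 0.74 within the first slide and 0.53 within the second.

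Inflammatory and cytokine genes also rose more often than they fell. In the NF-kB and TNF family list, 20 of 32 were higher and 6 were lower, with Tnfrsf18 (1.87), Lta (1.33) and Traf1 (0.95) among those higher and Nfkb1 (-1.44) and Tnfrsf9 (-1.02) among those lower. In the chemokine and cytokine list, 16 of 30 were higher and 3 were lower. Ccl9, a chemokine of myeloid cells, rose from 11.45 and 11.55 to 14.85, 14.71 and 14.77, a difference of 3.27 ± 0.07 (adjusted p = 7.18e-07). The chemokine receptor gene Cxcr3 (3.28) and Il18 (2.51) were higher, and the receptor gene Cxcr6 (-1.43) was lower.

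IL-7 is the growth factor of B-cell progenitors, and its receptor gene Il7r fell from 11.55 and 11.54 to 10.03, 10.20 and 10.03, a difference of -1.45 ± 0.08 (adjusted p = 2.03e-05). Over the list of IL-7, other cytokine signalling and STAT5 genes, 15 of 32 were higher and 8 were lower. The shares over all genes tested were 21.6% and 23.0%. The feedback inhibitor genes did not move together. Cish rose by 1.41 and Socs3 by 1.84, or by 0.1 on another Socs3 probe, while Socs1 fell (-0.95). The kinase genes Pim2 (-1.26) and Pim3 (-0.86), which cytokines induce, also fell, as did the receptor gene Il18r1 (-1.09).

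Of 39 immediate early and stress genes, 18 were higher and 5 were lower. The heat shock genes Hspa1a (2.77) and Hspa1b (2.65), near-identical copies that share sequence, the phosphatase gene Dusp2 (2.59), Klf4 (1.67) and Gadd45a (1.84) rose. Of 27 p53 and apoptosis genes, 8 were higher and 7 were lower, beside 21.6% and 23.0% over all genes tested. The death receptor gene Fas rose from 7.96 and 8.16 to 9.90, 9.70 and 9.69, a difference of 1.70 ± 0.10 (adjusted p = 3.8e-05), Trp53inp1 (1.40) and Bmf (0.89) rose, and the survival gene Bcl2 fell from 13.30 and 13.14 to 11.64, 11.84 and 11.65, a difference of -1.51 ± 0.08 (adjusted p = 2.65e-05). Of 28 adhesion genes, 9 were higher and 12 were lower, with Itgb5 (2.92) the largest rise of the list, the tetraspanin gene Cd9 (1.14) also higher, and Itgae the largest fall, followed by Selplg (-1.12) and Icam2 (-1.0).

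The subunits of CCR4-NOT, the complex that the altered residue contacts, showed small differences. Over 33 genes of the complex and of mRNA decay, 10 were higher, 7 were lower and 16 were not called, with a median of -0.07, or 51.5% called beside 44.6% over all genes tested. Cnot3 read 10.24 and 10.22 with Empty, 9.83, 9.96 and 9.88 with EBF1-H240A and 9.88, 9.70 and 9.91 with EBF1wt. Its difference from Empty was -0.34 ± 0.08 (adjusted p = 0.0157), but 1 of its 3 probes had the opposite sign. Averaging the probes, keeping dim probes in the test or leaving out either Empty array ended the call. The scaffold gene Cnot1 differed by -0.29 ± 0.07 (adjusted p = 0.0122), a call lost without the first Empty array, and the deadenylase gene Cnot8 by -0.09 ± 0.06 (adjusted p = 0.266). The largest changes of the list lay in its other genes of mRNA decay: Pan2 (0.98), Tob2 (0.94) and Zfp36l1 (0.83) rose and Nanos1 (-0.86) fell. Between EBF1-H240A and EBF1wt, 1 gene of the list was called, the antiproliferative gene Btg3 (0.32, adjusted p = 0.023), and that call was lost when single arrays were left out.

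Of 30 genes of DNA methylation and chromatin, 9 were lower and 3 were higher, 40.0% called against 44.6% over all genes tested. The methyltransferase genes Dnmt3b (-1.34), Dnmt3a (-0.86) and Dnmt1 (-0.64), the dioxygenase gene Tet1 (-0.72) and the methyl-binding gene Mbd3 (-0.74) were lower, and Dnmt3l (2.06), a cofactor of the methyltransferases, was higher. Dnmt3b read 8.43 and 8.45 with Empty and 7.09, 7.15 and 7.05 with EBF1-H240A (adjusted p = 3.26e-05). Among 5 testable genes of the EBF family and of E protein regulation, Id1, an inhibitor of E proteins, rose from 6.59 and 6.62 to 8.82, 8.41 and 8.57, a difference of 1.99 ± 0.12 (adjusted p = 3.29e-05), and Ldb1 (-0.56) was lower.

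**Figure D3:**
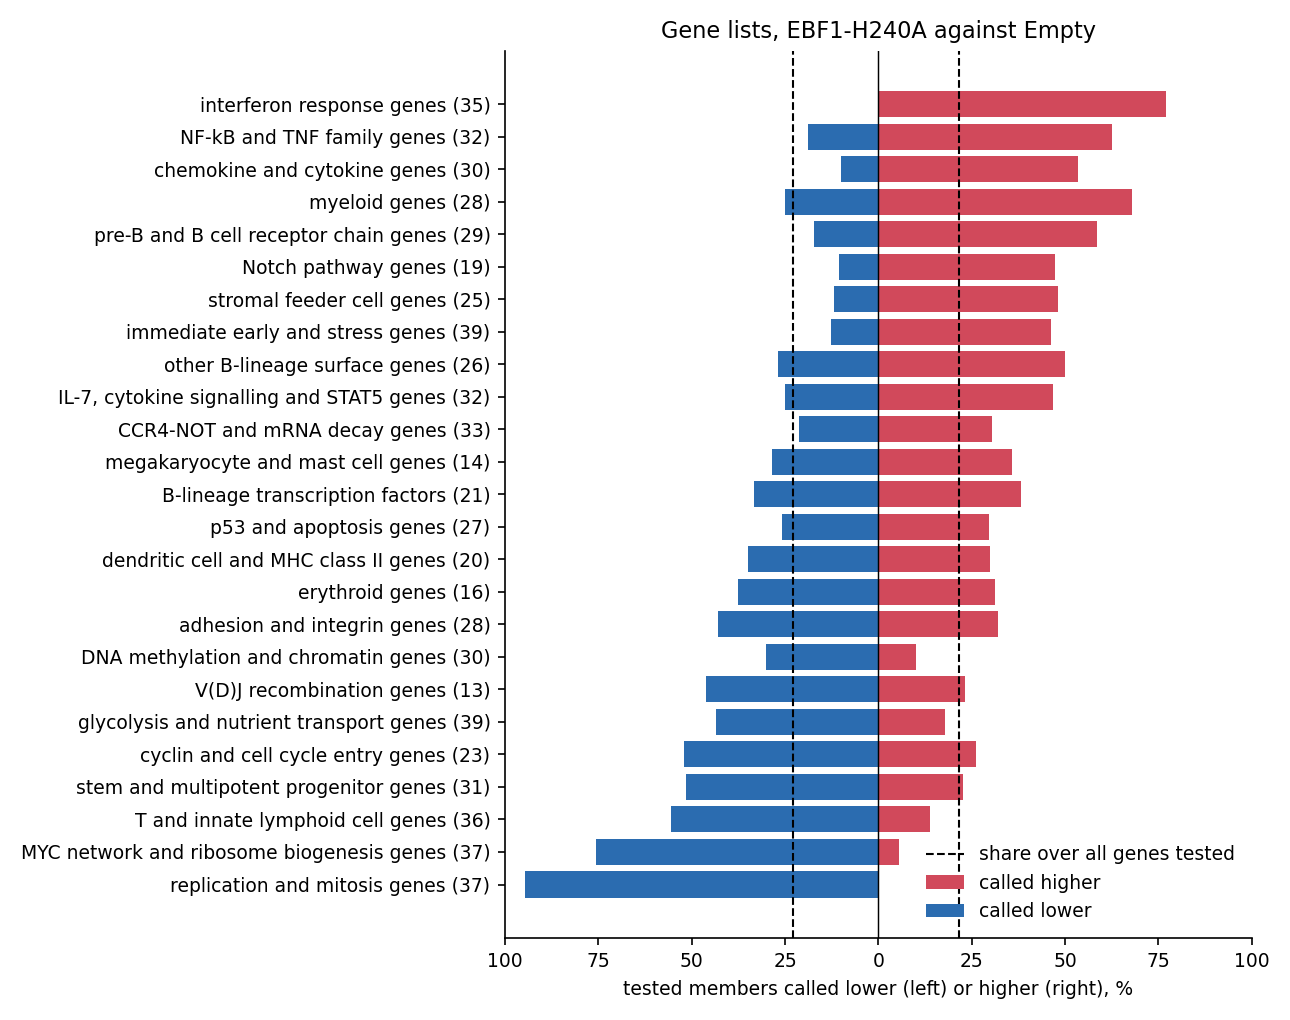
Share of tested members (horizontal axis, percent) called higher and called lower in EBF1-H240A against Empty for the 25 gene lists with at least 13 tested members (vertical axis, with the number tested), with dashed lines at the shares over all genes tested (21.6% higher, 23.0% lower). The largest shares called lower are those of replication and mitosis genes and of ribosome genes. The largest shares called higher are those of interferon and myeloid genes. The lists were chosen with earlier results of these data known.

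**Figure D4:**
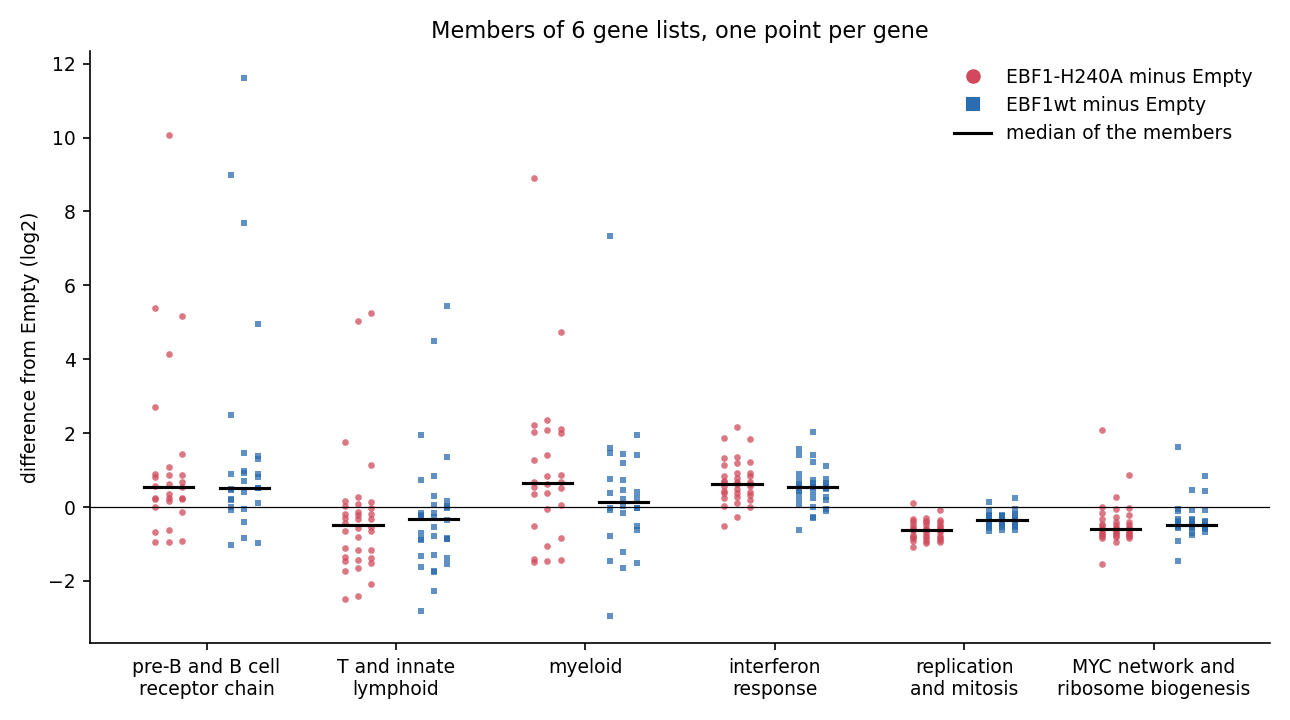
Log2 difference from Empty (vertical axis) of each tested member of 6 gene lists, drawn for EBF1-H240A and for EBF1wt, a point for each gene and a bar at the median. The Empty arrays are common to both columns of a list. Myeloid genes have medians of 0.65 and 0.13, replication and mitosis genes of -0.61 and -0.35.

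More markers of the OP9 feeder layer were called higher than lower with EBF1-H240A. Of 25 stromal genes tested, 12 were higher with EBF1-H240A and 3 were lower, with a median of 0.55, and 4 more were too dim to test, among them Pdgfra. Summed on the linear scale they gave 13651 and 14121 for Empty, 14432, 14428 and 17379 for EBF1wt and 17244, 16278 and 17729 for EBF1-H240A, so the EBF1-H240A arrays lay above both Empty arrays. Col1a1 rose by 1.16 to levels of 5.34, 5.26 and 5.44, and Pdgfrb (1.95) and Timp3 (0.87) were higher, whereas Timp2 (-1.44) and Igfbp4 (-2.78) fell. The part of feeder RNA in the results for the other lists was not tested. Of 17 hepatocyte genes, 14 were too dim to test, and among the other 3 Ahsg and Trf (-1.0) fell and Hnf4a was higher, by at least 1.34-fold, a call that normexp correction removed.

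For most genes that EBF1-H240A changed, no difference from EBF1wt was called. Among the genes called between the proteins, EBF1-H240A stood below EBF1wt at surrogate light chain genes and at Rag1, and above it at some myeloid genes. The signal chain genes Cd79a and Cd79b were not called between the proteins (adjusted p = 0.948 and 0.138 in limma). In the direct comparison, 1035 genes (6.35%) were called, 593 (3.64%) higher and 442 (2.71%) lower with EBF1-H240A, and 108 and 68 of these differed by at least 2-fold. Of the 3517 genes that EBF1-H240A raised over Empty, it exceeded EBF1wt in 447, fell short of it in 115 and was not called in 2955. Of the 3755 genes that it lowered, it lay below EBF1wt in 241, above it in 31 and was not called in 3483. A gene without a call between the proteins is not thereby shown to respond to both alike, since the SE of the difference between the proteins was 0.09 at the median gene. Of the 946 genes raised at least 2-fold, 240 lay above EBF1wt and 60 below it. These genes were chosen on the EBF1-H240A arrays, which also enter the comparison with EBF1wt, so the split between further and less far than EBF1wt is a description. Of the genes that the text names, 19 of 46 higher and 21 of 40 lower than with EBF1wt kept that call in every alternative, fits within a slide aside. Losses are stated below for some of these genes only.

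The genes at which EBF1-H240A fell short of EBF1wt included those of the surrogate light chain and the V(D)J recombinase gene Rag1. Vpreb1 read 14.88, 14.65 and 14.60 for EBF1wt against 10.93, 11.42 and 10.96 for EBF1-H240A, a difference of -3.60 ± 0.17 (adjusted p = 0.000609). Vpreb2, a near-identical copy that can bind the same probe, differed by -3.55 ± 0.22, and Igll1 read 12.61, 12.20 and 12.24 against 10.76, 10.95 and 10.70, a difference of -1.55 ± 0.14 (adjusted p = 0.00296). In all 3 genes the EBF1-H240A arrays lay above both Empty arrays and below every EBF1wt array.

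Rag1, which cuts antigen receptor genes, behaved otherwise. Its probe lies at chr2:101478813-101478872 on mm9, and those of Vpreb1 and Igll1 at chr16:16868559-16868618 and chr16:16861104-16861163. Rag1 read 5.11 and 5.11 for Empty, 7.35, 7.11 and 7.16 for EBF1wt and 4.02, 4.71 and 3.84 for EBF1-H240A, so the 3 EBF1-H240A arrays lay below both other groups. The difference between the proteins was -3.02 ± 0.22 (adjusted p = 0.00135). The difference of EBF1-H240A from Empty was -0.92 ± 0.24 (adjusted p = 0.0194), and that call was lost with normexp correction (-0.06), with the mean over its probes, in the authors' deposited values, in a fit of only the 2 groups, and without either Empty array or the first EBF1-H240A array.

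Outside the B-cell programme, the epidermal envelope gene Evpl read 9.55, 9.01 and 8.96 for EBF1wt and 5.53, 5.92 and 6.02 for EBF1-H240A, a difference of -3.35 ± 0.19 (adjusted p = 0.000803). The secretoglobin gene Scgb1c1 (-2.94), the protease gene Htra3 (-2.30), the kinase scaffold gene Mapk8ip1 (-1.99) and the cardiac troponin gene Tnnt2 (-1.90) were lower with EBF1-H240A than with EBF1wt. Among the gene lists, Cd24a (-0.95), Ighm (-0.75), Ly6d (-0.82), Tnfrsf13c (-0.83), Cd9 (-0.63) and cyclin D3 (Ccnd3, -0.47) were also below EBF1wt. In the list of pre-B and B-cell receptor genes, 7 of 29 were lower than with EBF1wt and 2 were higher. Over all genes tested, 2.71% were lower and 3.64% were higher in this comparison. Car3 (-1.83) and the membrane protein gene Shisa7, of which EBF1-H240A left no signal above background, lost their calls when single arrays were left out.

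Genes of T and innate cells were among those at which EBF1-H240A lay below EBF1wt. Zap70, the kinase that the T-cell receptor recruits, read 7.57 and 7.39 for Empty, 8.43, 8.07 and 8.18 for EBF1wt and 6.93, 7.37 and 6.85 for EBF1-H240A, a difference between the proteins of -1.18 ± 0.16 (adjusted p = 0.0112). Lck (-0.64), Lat (-0.69), the granzyme gene Gzma (-0.74) and Il2ra (-0.63) were lower than with EBF1wt too. Of 36 members, 7 were below EBF1wt and 3 were above it, beside 2.71% and 3.64% over all genes. Among the 12 largest falls, Ahsg differed most between the proteins, with 7.53, 7.26 and 7.26 for EBF1wt between 9.01 and 9.04 for Empty and 5.68, 5.63 and 5.67 for EBF1-H240A, a difference between the proteins of -1.69 ± 0.08 (adjusted p = 0.000609).

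EBF1-H240A raised another set of genes beyond the level reached with EBF1wt. Ramp3, a coreceptor of calcitonin-family receptors, read 4.34 and 3.73 for Empty, 6.33, 6.36 and 6.30 for EBF1wt and 10.00, 10.07 and 10.25 for EBF1-H240A, a difference between the proteins of 3.78 ± 0.15 (adjusted p = 0.000609). Col16a1 read 4.71, 4.39 and 4.78 for EBF1wt and 7.66, 8.25 and 7.83 for EBF1-H240A, a difference of 3.28 ± 0.19 (adjusted p = 0.000806). The galectin-related gene Grifin (3.33), the acute phase gene Orm1 (3.51), the adhesion gene Flrt1 (2.86) and the lipid droplet gene Cidec (2.82) showed differences of similar size. In Flrt1 and Cidec the groups were ordered Empty, EBF1wt and EBF1-H240A without overlap.

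S100a9, which encodes a calcium-binding protein of neutrophils, was not detected on any Empty or EBF1wt array and read 5.23, 4.97 and 6.64 with EBF1-H240A, at least 8.75-fold over Empty and at least 7.39-fold over EBF1wt. The adjusted p of the second comparison was 0.0153, and that call was lost without the first EBF1wt array (0.0583). The calls of Srd5a2, Kcne1 and Klra2 between the proteins were also lost when single arrays were left out.

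Myeloid and Notch genes stood above EBF1wt wherever a member was called between the proteins. In the myeloid list 10 of 28 were higher with EBF1-H240A than with EBF1wt and 0 were lower, beside 3.64% and 2.71% over all genes, and 0 were lower at an unadjusted p under 0.05 in limma. They included Fcnb (1.56), Cebpb (0.63), Cd33 (0.81) and Mpo, which read 9.24 and 8.91 for Empty, 6.21, 6.02 and 6.14 for EBF1wt and 7.65, 7.97 and 7.15 for EBF1-H240A. EBF1-H240A thus lowered Mpo less than EBF1wt did, by a difference of 1.47 ± 0.20 (adjusted p = 0.0117). In the Notch list 5 of 19 were higher with EBF1-H240A and 0 were lower, or 2 at an unadjusted p under 0.05, with, among the higher ones, Heyl, at 5.90, 5.91 and 5.80 for EBF1wt and 7.81, 7.91 and 7.93 for EBF1-H240A (difference 2.01 ± 0.22, adjusted p = 0.00545), and Lfng (0.78).

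Of 31 stem and progenitor genes, 6 were above EBF1wt and 2 below. For this list and the NF-kB and replication lists, the shares over all genes were 3.64% above and 2.71% below. Cd34 read 14.09 and 13.96 for Empty, 11.93, 12.22 and 12.15 for EBF1wt and 12.90, 12.85 and 12.81 for EBF1-H240A, a smaller fall than that with EBF1wt, by 0.75 ± 0.09 (adjusted p = 0.0066). Lyl1 (0.95), Cd93 (0.57), Lmo2 (0.53) and the cytokine receptor gene Il12rb1 (0.78) were higher with EBF1-H240A, and Flt3 (-0.66) was lower. In the NF-kB and TNF list 6 of 32 were higher with EBF1-H240A than with EBF1wt, among them Tnfrsf18 (0.74) and Lta (0.61), and 0 were lower, also at an unadjusted p under 0.05 in limma. In the replication and mitosis list 6 of 37 were lower with EBF1-H240A and 0 were higher, also at an unadjusted p under 0.05. Mcm5 (-0.41) and Top2a (-0.41) were among the 6, and both calls were lost when single arrays were left out.

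**Figure D5:**
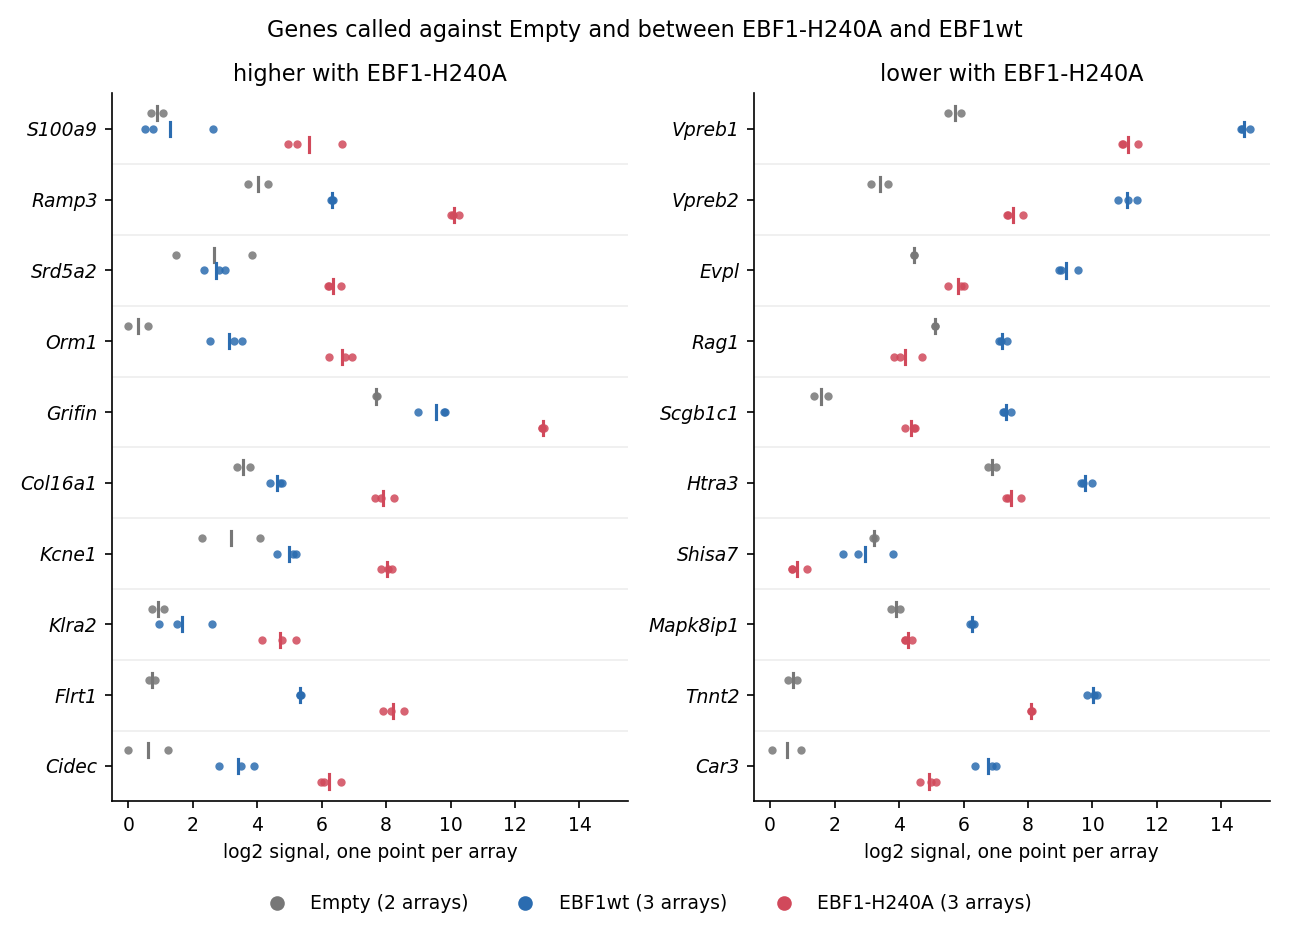
Log2 signal (horizontal axis) of the 10 genes furthest above and the 10 furthest below EBF1wt with EBF1-H240A, among genes called in both comparisons (vertical axis), a point for each of the 8 arrays, coloured by group. In the left panel every EBF1-H240A point lies to the right of the EBF1wt and Empty points of its gene. In the right panel every EBF1-H240A point lies to the left of the EBF1wt points, and for Rag1 and Shisa7 also to the left of the Empty points.

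The number of calls between the proteins depended on single arrays and on the slide term. With the slide as a block the calls numbered 644. Each slide held a single array of 1 of the 2 groups, and fits within a slide, with 1 residual degree of freedom, called 0 genes in limma, where 1523 and 1599 had an unadjusted p under 0.05. With so few arrays, these 0 counts say nothing of stability. The number fell from 1035 to 363 without the first EBF1wt array, to 439 without the second, to 674 without the third, to 447 without the first EBF1-H240A array and to 445 without the third of that group. Against Empty, where the calls numbered 7272, leaving out any 1 array left between 5422 and 7371.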

How the data were processed

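Total RNA was labelled with Cy3 and read on 1-colour Agilent arrays, 8 in all, grouped by the transductant in the labels. The submitters' processing notes name Feature Extraction 10.5.1.1 as the source of the deposited scanner output. Its processed signal is, per the file headers, a background-corrected intensity on a linear scale, and the annotation refers to mm9. The deposited table of log2 values served only as an alternative; it correlated with the scanner values of the same array at 0.972 to 0.979 and had medians of 4.90 to 4.93, and its scale, centring and normalization are not given in the sources used here.

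Each array's 43379 non-control spots were scaled to a common 75th percentile (231.8 to 325.9 before scaling), set to at least 1, converted to log2 and averaged into 41174 probes. Probes well above background on at least 2 of 8 arrays were kept (25005, with 24 left out for a missing value). The brightest kept probe stood for each of 16304 genes, of which 5960 had several, and all kept probes shared the sign in 2721 of 2955 called genes with several. Names came from RefSeq by accession for 27903 probes, by symbol for 5448 and by older symbol for 370, and 7453 kept the file's name.

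The test was lmFit with eBayes of limma 3.58.1 under R 4.3.3 (two-sided, Benjamini-Hochberg over all genes, 8 arrays, no covariate, 5 residual degrees of freedom, SE from the model). The method was tested on simulated data with independent noise and few changed genes. Many genes changed in the real data, so that test does not cover the counts given here. Bounds set the bright group's mean against the higher of the dim signal and the lowest detected signal of each array, and hold for the main processing only. Named genes were the 12 largest rises and falls, the 10 furthest above and below EBF1wt, 4 members of each list by adjusted p with further members by role, the 6 largest bounded changes each way, Ebf1 and Cnot3. The comparisons, members and the 27 gene lists were chosen with earlier results of these data known. Alternatives covered normalization, background, filter, probes, slides, pairing and single arrays. The EBF1 protein sequence was not used here. Some single genes are not reported here.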

Additional observations from a re-analysis of the deposited data

How the results depend on the processing

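Against Empty, the 7272 calls became 7264 with quantile normalization, 5368 with normexp correction and 5597 in the authors' deposited values, 6916 with the slide as a block, and 1096 and 322 within the first and second slide, of which 69.8% and 85.4% were higher. The fits within a slide rest on 1 Empty array and 1 residual degree of freedom, so neither their counts nor that split was compared further. Leaving out 1 array gave 5422 to 7371. Of the genes that the text names and that were called, 111 of 118 higher and 90 of 102 lower kept their call in every alternative other than the fits within a slide. Against EBF1wt, the 1035 calls became 337 with no filter on dim probes, 651 in the authors' values, 644 with the slide block, and 0 and 0 within the slides, and 363 to 837 with 1 array left out. Of the genes named, 19 of 46 higher and 21 of 40 lower kept their call against EBF1wt in every alternative other than the fits within a slide.

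Same-numbered arrays of different groups correlated in their deviations at -0.33 to 0.19, so the numbers were not taken to pair the samples. With the replicate number as a block, 5920 genes were called against Empty and 359 against EBF1wt, and the calls of Cnot3 and Rag1 against Empty and of S100a9 against EBF1wt were among those lost.

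The sign changed against Empty for Shisa7 with normexp (0.0367) and for Vpreb3, which was not called, between leaving out the first Empty array (1.097) and the second (-1.346), and against EBF1wt for Il20ra with normexp (0.0415) and in the authors' values (0.0551) and for Megf10 with normexp (0.0177). The cause was not tested. List medians changed sign between the slides for adhesion genes (-0.20 and 0.05), erythroid genes (-0.01 and 0.05), p53 genes (0.04 and -0.02) and the EBF family (0.28 and -0.03). Only 2 Empty arrays set every difference from Empty, and signals near background have no order.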
